A study of Homo sapiens with 6 samples.

Results

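Over-expression of a tRNA-Glu gene with anticodon TTC, the locus named chr1.trna5, was compared with mock transfection in MDA-MB-231, a human cell line from a triple-negative breast tumour. A gene was included if 2 or more of these 4 arrays detected its probe, with a detection p below 0.01, which gave 10633 of the 20046 genes that the array names. Both groups held 2 arrays each, and a tRNA-Arg line (anticodon CCG, chr16.trna1) with 2 arrays was used for side-by-side values. The over-expression lines are stable lines, all cells were grown in serum-supplemented DMEM, and no label says whether a line is a clone or a pool. Whether replicate arrays stem from separate cultures is not labelled, so the p-values rest on array-to-array spread that may be only technical.

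A tRNA carries an amino acid to the ribosome and pairs with the codons that its anticodon can read. tRNA-Glu with this anticodon decodes glutamate codons, and in breast cancer cells its level has been tied to metastasis in earlier work. The array reads mRNAs and some noncoding RNAs, not mature tRNAs, so the over-expressed tRNA was not measured and the labels cannot be checked through it. The comparison asks which transcripts differ in abundance when more of this tRNA is made.

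Cell type markers were read beside the labelled cell line, which they cannot identify by themselves. All 9 listed genes that MDA-MB-231 cells express were detected, of which 5 were higher and 3 lower in tRNA-Glu cells. Among these markers S100A4 rose most (2.83-fold higher) and CD44 fell most (1.36-fold lower). Only VIM, a mesenchymal filament protein, was not called. Its log2 normalized intensities were 13.83 and 13.75 in tRNA-Glu cells and 13.83 and 13.87 in control cells. Of 12 luminal and epithelial markers, EPCAM and TFF3 were detected, and ESR1, PGR, CDH1 and GATA3 did not pass the detection filter. Of 12 blood cell markers, 5 were detected and 4 of them were higher in tRNA-Glu cells, LAPTM5 by 2.78-fold, CSF1R by 2.50-fold, CD68 by 2.25-fold and CD34 by 1.85-fold, while CD14 was not called. The summed normalized intensity of the 5 was 3881.8 and 4100.6 on the tRNA-Glu arrays against 1856.7 and 1788.8 on the control arrays. The defining leukocyte genes PTPRC, CD3E and SPI1 did not pass the filter, and the part of the other markers in the results was not tested. Of 9 fibroblast markers only COL1A1 was detected (2.26-fold higher), and of 8 endothelial markers only ROBO4 (1.43-fold higher) and PECAM1 (not called).

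Mean non-normalized intensities were 331.3 and 270.0 on the tRNA-Glu arrays and 250.6 and 285.8 on the control arrays, and each of these arrays detected between 16650 and 17279 probes. The median gene differed by 0.09 on the log2 scale between the tRNA-Glu arrays and by 0.10 between the control arrays, in size and without sign, against a median size of 0.35 for the difference between the groups. Across genes, which are not independent replicates, r was 0.997 between the tRNA-Glu arrays, 0.996 between the control arrays and 0.956 to 0.959 between arrays of the different groups.

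Of 10633 genes, 6489 were called (61%, limma with Benjamini-Hochberg adjustment over all genes, adjusted p under 0.05). Among them 3444 were higher in tRNA-Glu cells (32.4%) and 3045 were lower (28.6%), and 4144 were not called. With median scaling in place of quantile normalization 3866 genes were called, or 36.4%. The shares with quantile normalization are the background for every list below. Most called differences were small: 3642 were under 1.5-fold, 437 genes rose by at least 2-fold (4.11%) and 386 fell by at least 2-fold (3.63%). At 4-fold or more there were 51 rises and 6 falls, so in this fit the largest differences were mostly rises. These counts were not repeated under other processing. Without background correction some of these genes were under 4-fold, rises and falls both. For 80.9% of genes both tRNA-Glu arrays lay on the same side of both control arrays, and the median log2 difference of all genes was 0.04.

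**Figure D1:**
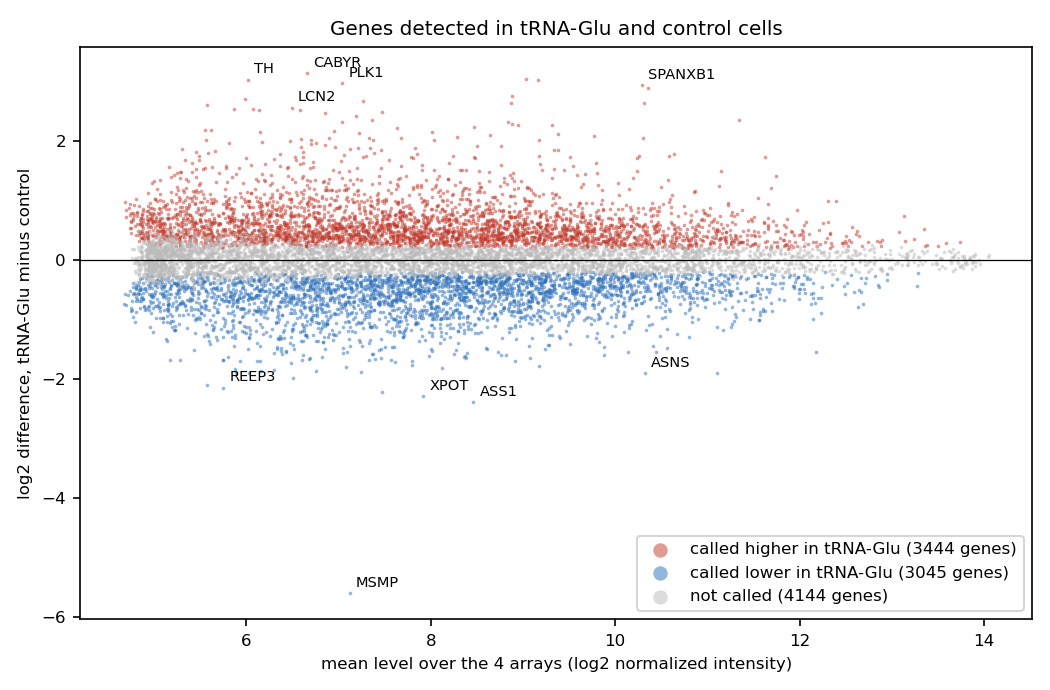
Log2 difference (tRNA-Glu minus control, vertical) against the mean log2 normalized intensity over the 4 arrays (horizontal), 1 point per detected gene, coloured by call. Called genes lie at all levels on both sides of 0, 51 genes rise by 4-fold or more against 6 that fall as far, and MSMP stands apart at -5.60.

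All directions follow the array labels, over-expression minus control. The authors' deposited table of fold changes runs the other way: of 714 genes that were called at 2-fold or more and that it lists, 708 have the opposite sign there. CABYR, for instance, has a log2 difference of 3.15 here and a value of -0.89 in the authors' deposited table, whose scale and direction are not stated. Both deposited value tables, the non-normalized and the processed one, gave the direction used here. These tables carry the same sample labels, so this does not check the labels, and every direction would turn if the labels of the groups were exchanged.

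Folds of dim genes depend on the background step: of the named genes, 23 moved by over 1.5 times without background correction, and all 23 were still called in the same direction. At a detection p below 0.01, SAA2, SERINC2, MAGEC2, CEMIP, PHLDA3 and S1PR3, for example, were detected on neither control array. REEP3 and KMT2C were likewise detected on neither tRNA-Glu array. The folds of these genes are given without a bound, but rest on a dim group. In the main analysis the largest rise was that of CABYR, a calcium-binding protein of the sperm tail. Its log2 level was 8.23 and 8.24 in tRNA-Glu cells, against 4.83 and 5.34 in control cells, a difference of 3.15 ± 0.15 (SE, n = 2 against 2 arrays, adjusted p = 9.74e-06 by limma), and 2.21 without background correction. The groups did not overlap, and the control arrays differed more from each other than the tRNA-Glu arrays did. Beside it stood 4 SPANX genes of the X chromosome, which encode nuclear proteins of sperm. SPANXB1 had 11.75 and 11.76 in tRNA-Glu cells and 8.84 and 8.79 in control cells (7.70-fold higher), and SPANXC had 10.56 and 10.57 in tRNA-Glu cells against 7.60 and 7.41 in control cells (8.32-fold). SPANXD and SPANXA2 were 8.21-fold and 7.46-fold higher. Under every alternative analysis the 4 SPANX genes kept log2 differences of at least 2.62, so CABYR ranked below them without background correction. These genes are near-identical copies, so their probes may read each other's transcripts and count as a group, not as 4 measurements.

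Testis antigens outside this family were mostly not detected. Of 40 listed MAGE, GAGE and other cancer-testis genes, 37 are named on the array and 7 were detected, of which 5 rose, none fell and the median log2 difference was 0.60. MAGEC2, an X-linked antigen, had 6.85 and 6.74 in tRNA-Glu cells against 4.70 and 4.94 in control cells (3.92-fold higher, adjusted p = 1.24e-05). MAGEB2 was 1.70-fold higher. The counts also include MAGED1, a broadly expressed adaptor protein (1.97-fold higher), and its relative MAGED2 (1.52-fold), which are not restricted to testis.

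PLK1, KIF20A and AURKA, which act in mitosis, were among the 15 largest rises. PLK1, the kinase that drives mitotic entry and spindle assembly, had 8.47 and 8.59 in tRNA-Glu cells against 5.50 and 5.61 in control cells, a log2 difference of 2.98 ± 0.08 (SE, adjusted p = 2.29e-06). KIF20A, a kinesin of the central spindle, had 10.34 and 10.19 in tRNA-Glu cells against 7.52 and 7.49 in control cells. AURKA, the spindle pole kinase, had 11.71 and 11.56 in tRNA-Glu cells against 8.98 and 8.99 in control cells, and was 6.28-fold higher. For each of these genes the arrays of a group lay close together and the groups did not overlap.

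SAA1, SAA2 and LCN2, which encode secreted proteins, were also among the 15 largest rises. SAA1, serum amyloid A, had 8.50 and 8.71 in tRNA-Glu cells against 6.02 and 5.83 in control cells (6.41-fold higher, or a log2 difference of 1.73 with its probes averaged against 2.68 with the brightest), and its neighbour SAA2 had 7.34 and 7.35 in tRNA-Glu cells against 4.76 and 4.50 in control cells (6.58-fold). SAA1 and SAA2 are close copies, and their probes may not tell them apart. LCN2, a carrier of iron-binding siderophores, had 7.64 and 7.91 in tRNA-Glu cells against 5.30 and 5.11 in control cells (5.93-fold, adjusted p = 1.27e-05).

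The remaining leading rises had unlike roles. TH, tyrosine hydroxylase of catecholamine synthesis, had 7.47 and 7.60 in tRNA-Glu cells, while its probe was not above background on either control array, at 4.41 and 4.57, so that its rise was at least 6.04-fold. CLIC3, a chloride channel-like protein, was likewise not above background in control and rose at least 3.84-fold. Such a bound sets the bright group's mean against the lowest signals above background on the dim arrays, or the probe's own signal where that was higher. RPPH1, the RNA component of RNase P that trims the leader from precursor tRNAs, had 10.13 and 10.26 in tRNA-Glu cells against 7.75 and 7.35 in control cells (6.23-fold higher). SERINC2, a membrane protein of the serine incorporator family, was 5.87-fold higher, a log2 difference of 2.55 that was 1.55 without background correction. It was detected on neither control array at a detection p below 0.01.

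**Figure D2:**
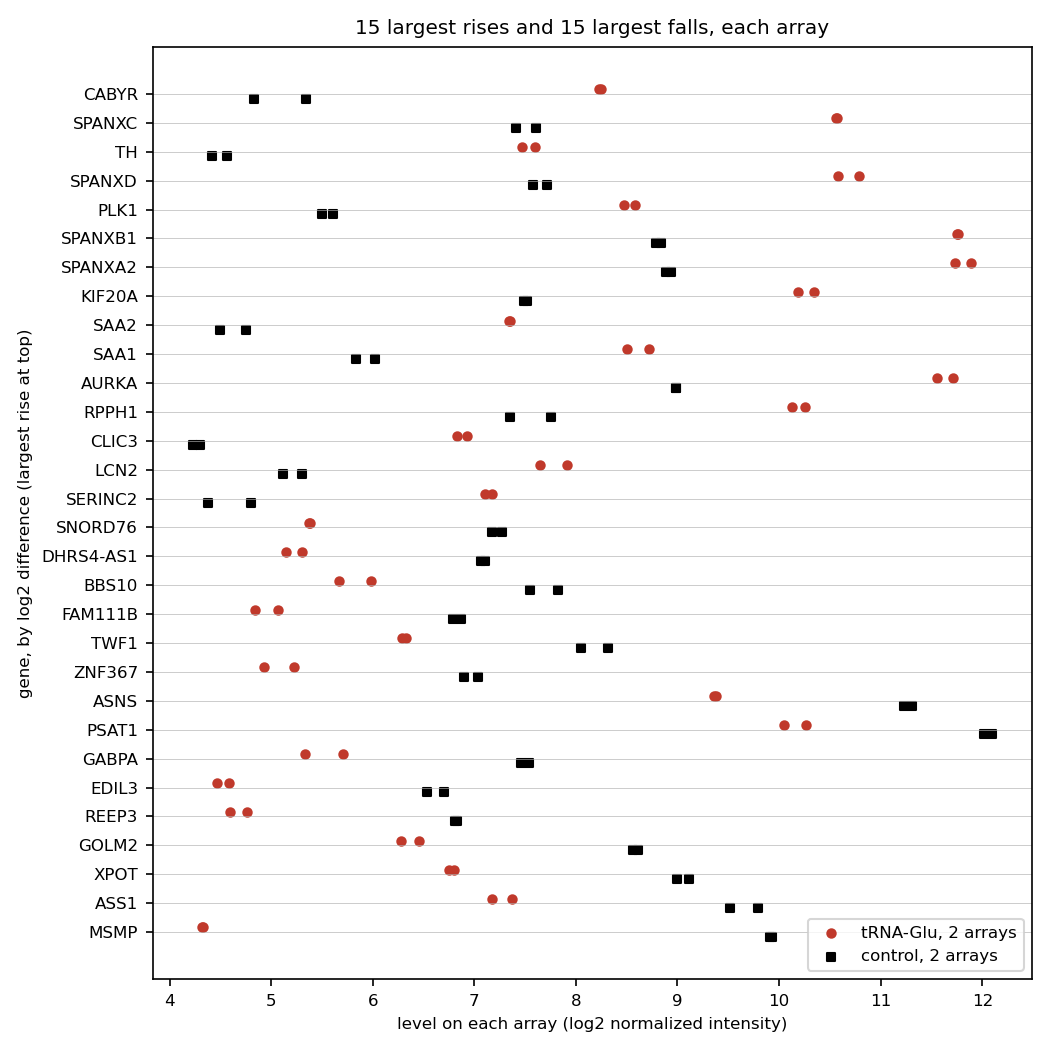
Log2 normalized intensity on each array (horizontal) for the 15 genes with the largest rises and the 15 with the largest falls (rows), with tRNA-Glu arrays as circles and control arrays as squares. In every row the groups lie apart, and in most the arrays of a group lie close together. Control arrays lie further from each other for CABYR (4.83 and 5.34) and SERINC2 (4.80 and 4.38), among others. MSMP shows the widest gap, with tRNA-Glu arrays at 4.32 and 4.33 and control arrays at 9.91 and 9.93.

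The deepest fall was that of MSMP, a small secreted protein described in prostate. Its probe was not above background in tRNA-Glu cells, at 4.32 and 4.33, against 9.91 and 9.93 in control cells, so that its fall was at least 30.9-fold (adjusted p = 3.52e-07). No other gene fell by as much as 6-fold. EDIL3, an integrin-binding matrix protein, was also not above background in tRNA-Glu cells, at 4.58 and 4.47 against 6.70 and 6.53 in control cells, and fell at least 3.13-fold. In all, 96 genes had a probe above background in tRNA-Glu cells only and 65 in control cells only, and for TH and MSMP alone was the bound past 4-fold.

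ASS1, XPOT, ASNS and PSAT1 were among the 15 largest falls. ASS1, which makes argininosuccinate on the way to arginine, had 7.37 and 7.18 in tRNA-Glu cells against 9.51 and 9.79 in control cells, a log2 difference of -2.38 ± 0.12 (SE, adjusted p = 1.15e-05). XPOT, the nuclear export receptor of tRNAs, had 6.75 and 6.80 in tRNA-Glu cells against 9.0 and 9.11 in control cells (4.86-fold lower, adjusted p = 3.22e-06). ASNS, asparagine synthetase, had 9.36 and 9.38 in tRNA-Glu cells against 11.23 and 11.31 in control cells (3.73-fold lower). PSAT1, the aminotransferase of serine synthesis, had 10.05 and 10.26 in tRNA-Glu cells against 12.10 and 12.02 in control cells (3.74-fold lower). For each of these genes both tRNA-Glu arrays lay below both control arrays.

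Falls of nearly the same size were seen in genes without such roles. GOLM2, a Golgi membrane protein, had 6.46 and 6.28 in tRNA-Glu cells against 8.61 and 8.56 in control cells (4.65-fold lower), and REEP3, which shapes the endoplasmic reticulum, was 4.41-fold lower. GABPA, an ETS-family transcription factor of nuclear-encoded mitochondrial genes, had 5.33 and 5.71 in tRNA-Glu cells against 7.46 and 7.54 in control cells (3.95-fold lower). ZNF367, a zinc finger factor, was 3.71-fold lower, TWF1, an actin monomer-binding protein, 3.68-fold, FAM111B, a trypsin-like protease, 3.67-fold, and BBS10, a chaperonin-like protein of the cilium, 3.64-fold. Noncoding RNAs among the largest falls were DHRS4-AS1, an antisense transcript (3.62-fold lower), and SNORD76, a small nucleolar RNA (3.59-fold lower).

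EXOSC2, a subunit of the RNA exosome, and GRIPAP1, a protein of recycling endosomes, are the transcripts for which the study of this tRNA is known. EXOSC2 had 9.14 and 9.02 in tRNA-Glu cells against 9.34 and 9.28 in control cells, a log2 difference of -0.23 ± 0.08 (SE, adjusted p = 0.041). It was no longer called in 7 of the alternative analyses, among them the fits without tRNA-Glu replicate 2 and without either control array. GRIPAP1 had 8.24 and 8.35 in tRNA-Glu cells against 7.91 and 8.07 in control cells, a difference of 0.31 ± 0.10 (SE, adjusted p = 0.024), and was no longer called under median scaling, with its probes averaged, without tRNA-Glu replicate 2 or without control replicate 1. The authors' deposited table gives 0.20 for EXOSC2 and -0.02 for GRIPAP1.

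The same genes were read on the tRNA-Arg arrays. Both comparisons use the tRNA-Glu arrays, so their values are given side by side only. Over all genes, 44% (4679) were called between tRNA-Glu and tRNA-Arg cells, against 1327 genes under median scaling and 2806 without tRNA-Glu replicate 2. For KIF20A the tRNA-Arg arrays stood at 10.37 and 10.37, and for AURKA at 11.69 and 11.64, and neither gene was called between the over-expression lines (log2 differences tRNA-Glu minus tRNA-Arg of -0.11 and -0.03, adjusted p = 0.308 and 0.806). CABYR stood at 8.34 and 8.25 on the tRNA-Arg arrays and also did not differ by test (difference -0.06, adjusted p = 0.767). MSMP was at 4.44 and 4.69 there, close to the tRNA-Glu level.

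Other genes parted the over-expression lines. LCN2 was at 4.77 and 5.08 on the tRNA-Arg arrays, 2.85 log2 units under its level in tRNA-Glu cells (adjusted p = 0.00025), and thus near its level in control cells. SAA1 was 2.03 log2 units and SAA2 2.15 units higher in tRNA-Glu than in tRNA-Arg cells. XPOT stood at 8.14 and 8.12 on the tRNA-Arg arrays, between the tRNA-Glu and the control arrays, and was 1.35 units lower in tRNA-Glu cells (adjusted p = 0.00039). GOLM2 and TWF1 each lay 1.43 units lower in tRNA-Glu than in tRNA-Arg cells. ACTG2, higher than in control, was 0.96 units lower in tRNA-Glu than in tRNA-Arg cells, and ABCC3, lower than in control, 0.91 units higher. Of genes at least 2-fold above control, 232 were called higher and 26 lower in tRNA-Glu than in tRNA-Arg cells. Of those at least 2-fold below control, 286 were called lower and 22 higher. These counts and the choice of genes share the tRNA-Glu arrays, so they test nothing. Of the transcripts known from the study, EXOSC2 was 0.32 units lower and GRIPAP1 0.55 units higher in tRNA-Glu than in tRNA-Arg cells (adjusted p = 0.016 and 0.00398).

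Promoter sequence was read for 8668 detected genes from RefSeq (GRCh38.p14, 250 bases before to 50 after the gene start) and searched on both strands for short motifs. Of promoters of genes at least 2-fold higher, 18.1% held TTTGAA, the cell cycle element, against 9.91% of all detected genes' promoters. CCAAT, the box bound by NF-Y, was in 46.9% of them against 37.5% of all. In promoters of genes at least 2-fold lower, TTTGAA was in 11.3% and CCAAT in 32.2%. TGACTCA, the AP-1 site, was in 5.34% of promoters of genes at least 2-fold higher, 1.93% of those at least 2-fold lower and 3.06% of all. Of promoters of genes at least 2-fold lower, 3.86% held TGATGNAA, the core of amino acid response elements, against 1.78% of those at least 2-fold higher and 1.66% of all. CCGGAAG, the ETS core, was in 10.7% of promoters of genes at least 2-fold higher, in 19.3% of those at least 2-fold lower and in 20.1% of all. CACGTG was in 9.20% of promoters of genes at least 2-fold higher, 11.3% of those at least 2-fold lower and 10.5% of all. Of the other motifs searched, the interferon-stimulated response element core was in 5.05%, 4.82% and 2.88% of these promoter groups, CATTCC in 13.9%, 9.33% and 10.7%, CGTCA in 29.4%, 33.8% and 35.5%, and an NF-kappaB motif in 2.67%, 2.57% and 2.25%. The median GC content of promoters was 62.7% for genes at least 2-fold higher, 66.0% for those at least 2-fold lower and 65.0% for all. Its part in the motif shares was not tested. The motif shares describe the promoters and were not tested, and a match is not a site that a factor was seen to bind.

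The promoters of 5 genes chosen by hand are printed to show such matches, 5′ to 3′ on the gene's own strand. Letters of the motifs chosen for each gene are in capitals, and all else, other searched motifs included, is in lower case. In PLK1 the capitals mark CCAAT and TTTGAA, in KIF20A a pair of CCAAT boxes on the opposite strand (ATTGG), in S100A2 TGACTCA, in ASNS TGATGNAA and in XPOT CCGGAAG, once on each strand. TTTGAA was also chosen for KIF20A and TGATGNAA for XPOT, and neither had a match there. None of the marked matches overlap each other. S100A2, a calcium-binding S100 protein, had 8.31 and 8.50 in tRNA-Glu cells against 5.78 and 6.18 in control cells (5.38-fold higher).
PLK1, chr16:23678639-23678938, plus strand: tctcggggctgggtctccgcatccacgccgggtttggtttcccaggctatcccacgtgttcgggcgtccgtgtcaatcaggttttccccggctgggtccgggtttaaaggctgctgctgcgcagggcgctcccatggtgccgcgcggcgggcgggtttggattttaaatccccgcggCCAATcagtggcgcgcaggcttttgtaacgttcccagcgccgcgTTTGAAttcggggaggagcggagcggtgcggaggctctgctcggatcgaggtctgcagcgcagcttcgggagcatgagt
KIF20A, chr5:138178862-138179161, plus strand: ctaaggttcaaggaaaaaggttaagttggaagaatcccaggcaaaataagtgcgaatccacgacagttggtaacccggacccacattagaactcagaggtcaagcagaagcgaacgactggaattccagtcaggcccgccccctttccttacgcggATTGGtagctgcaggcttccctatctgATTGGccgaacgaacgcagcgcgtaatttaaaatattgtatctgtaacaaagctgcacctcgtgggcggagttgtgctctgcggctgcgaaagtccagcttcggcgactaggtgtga
S100A2, chr1:153565795-153566094, minus strand: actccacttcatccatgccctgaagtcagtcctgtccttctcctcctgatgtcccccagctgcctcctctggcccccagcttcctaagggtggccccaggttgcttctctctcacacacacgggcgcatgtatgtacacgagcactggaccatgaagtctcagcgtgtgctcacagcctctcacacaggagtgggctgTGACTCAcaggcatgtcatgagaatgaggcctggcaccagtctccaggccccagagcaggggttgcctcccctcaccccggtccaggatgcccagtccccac
ASNS, chr7:97872359-97872658, minus strand: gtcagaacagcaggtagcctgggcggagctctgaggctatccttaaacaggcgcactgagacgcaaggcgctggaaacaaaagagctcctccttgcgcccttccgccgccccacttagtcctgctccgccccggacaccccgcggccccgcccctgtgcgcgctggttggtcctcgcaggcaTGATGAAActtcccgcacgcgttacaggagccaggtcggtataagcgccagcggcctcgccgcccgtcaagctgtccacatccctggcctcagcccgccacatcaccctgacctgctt
XPOT, chr12:64404142-64404441, plus strand: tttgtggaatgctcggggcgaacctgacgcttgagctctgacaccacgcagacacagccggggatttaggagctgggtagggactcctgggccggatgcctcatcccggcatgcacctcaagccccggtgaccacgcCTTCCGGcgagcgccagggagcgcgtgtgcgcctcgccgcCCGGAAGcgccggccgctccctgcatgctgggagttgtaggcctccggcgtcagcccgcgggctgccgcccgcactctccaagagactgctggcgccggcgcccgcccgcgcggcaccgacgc

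Gene lists by role are described by how many detected members were called, beside the 32.4% higher and 28.6% lower of all genes. The lists numbered 59. Their counts refer to tRNA-Glu against control cells unless stated, and do not show whether tRNA-Arg cells differed alike.

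Of 35 listed BCL2-family and caspase genes, 25 were detected, of which 13 rose and 1 fell (median log2 difference 0.25). APAF1, the scaffold of the apoptosome, had 8.60 and 8.51 in tRNA-Glu cells against 7.65 and 7.74 in control cells (1.82-fold higher). BCL2L12 was 1.85-fold higher, CASP1, the inflammatory caspase, 1.89-fold and CFLAR, an inhibitor of caspase-8 activation, 1.59-fold. Members that promote and members that restrain cell death were thus both among the rises. Of 28 listed p53 targets, 20 were detected, of which 11 rose and 5 fell (median 0.35). MDA-MB-231 cells are known to carry a mutant p53, and the regulator of these genes was not tested. CDKN1A, the p21 inhibitor of cyclin-dependent kinases, had 11.67 and 11.71 in tRNA-Glu cells against 10.73 and 10.80 in control cells (1.91-fold higher). PHLDA3, a repressor of AKT, was 2.27-fold higher and TP53I3, a quinone oxidoreductase, 2.03-fold, while SESN2, a stress-responsive inhibitor of mTORC1, was 1.79-fold lower.

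Of 29 TNF receptor superfamily members and ligands, 17 were detected, of which 9 rose and 3 fell (median 0.25). TNFRSF1B, the type 2 TNF receptor, had 7.26 and 7.18 in tRNA-Glu cells against 4.84 and 5.30 in control cells (4.44-fold higher, adjusted p = 3.64e-05). TNFSF9 was 2.21-fold higher and TNFRSF14 1.71-fold. TNFRSF11B, the decoy receptor osteoprotegerin, moved the other way, with 5.74 and 5.57 in tRNA-Glu cells against 7.16 and 7.25 in control cells (2.93-fold lower).

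Tubulins rose in 9 of 15 detected cases and fell in 1 (median 0.26). TUBB2A, a beta-tubulin, had 9.93 and 9.91 in tRNA-Glu cells against 8.76 and 8.85 in control cells (2.17-fold higher), and TUBA4A was 1.95-fold and TUBB6 1.73-fold higher. Tubulin genes share long stretches of sequence, so cross-reading of probes was not tested. The fall was that of TUBE1, the epsilon-tubulin of centrioles (2.96-fold lower). Of 39 detected actins, myosins and actin-binding proteins, 18 rose and 9 fell (median 0.17), led by ACTA2, smooth muscle actin, with 7.27 and 7.25 in tRNA-Glu cells against 5.33 and 5.61 in control cells (3.45-fold higher). GSN, the severing protein gelsolin, was 2.04-fold and ACTN4, an alpha-actinin, 1.87-fold higher. ACTG2 was not above background in control cells and rose at least 2.13-fold.

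At the cell surface, of 53 listed G protein-coupled receptors, adhesion and chemokine types among them, 27 were detected, of which 13 rose and 4 fell (median 0.31). Receptors of this class outside the list were not counted. GPER1, a membrane receptor reported to bind oestrogen, had 7.93 and 7.91 in tRNA-Glu cells against 6.04 and 5.96 in control cells (3.77-fold higher, adjusted p = 5.92e-06). ADGRE5, the adhesion receptor CD97, was 2.22-fold higher, S1PR3, a sphingosine-1-phosphate receptor, 2.01-fold and P2RY2, a nucleotide receptor, 1.74-fold. Of 15 detected glypicans, syndecans and hyaluronan genes, 8 rose and 3 fell (median 0.27), among them CEMIP, which degrades hyaluronan (2.91-fold higher), and SDC1, syndecan-1 (1.84-fold). Of 20 detected potassium and calcium channels, 9 rose and 3 fell, with KCNK6 1.92-fold higher and ORAI1, the pore of store-operated calcium entry, 1.60-fold higher. S100 proteins and annexins gave 8 rises and 3 falls among 19 detected members. S100A4, linked to metastasis, had 11.96 and 11.85 in tRNA-Glu cells against 10.33 and 10.47 in control cells (2.83-fold higher), while ANXA4 was 2.12-fold lower.

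Receptors of growth factors and guidance cues moved in both directions. Of 16 detected receptor tyrosine kinases, 7 rose and 3 fell. ROR1, a Wnt5a receptor, had 7.28 and 7.39 in tRNA-Glu cells against 6.0 and 5.97 in control cells (2.55-fold higher), and AXL, the GAS6 receptor, was 1.79-fold higher, while DDR1, a collagen receptor, was 1.67-fold lower. WNT5A itself was not above background in tRNA-Glu cells, at 4.32 and 4.35 against 5.91 and 6.13 in control cells, and fell at least 2.06-fold. The Wnt list as a whole was mixed, with 8 rises and 10 falls among 25 detected members. With the probes of ROR1 averaged, its log2 difference was 0.54 against 1.35 with the brightest probe. NRP1, a co-receptor of semaphorins and VEGF, was 2.25-fold lower, VEGFA 2.16-fold lower and EFNB2, an ephrin, 2.08-fold lower. The other probe of NRP1 ran the opposite way, and its averaged probes gave a log2 difference of -0.22 against -1.17. NRG1, a ligand of ERBB receptors, was 2.11-fold higher, a log2 difference of 1.08 that was 0.48 with its probes averaged. Of the interleukin receptors, IL13RA2 and IL7R were 3.32-fold and 2.82-fold higher, whereas IL6ST, the shared signal chain of the IL-6 family, and the kinase JAK1 were 2.46-fold and 2.32-fold lower.

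**Figure D3:**
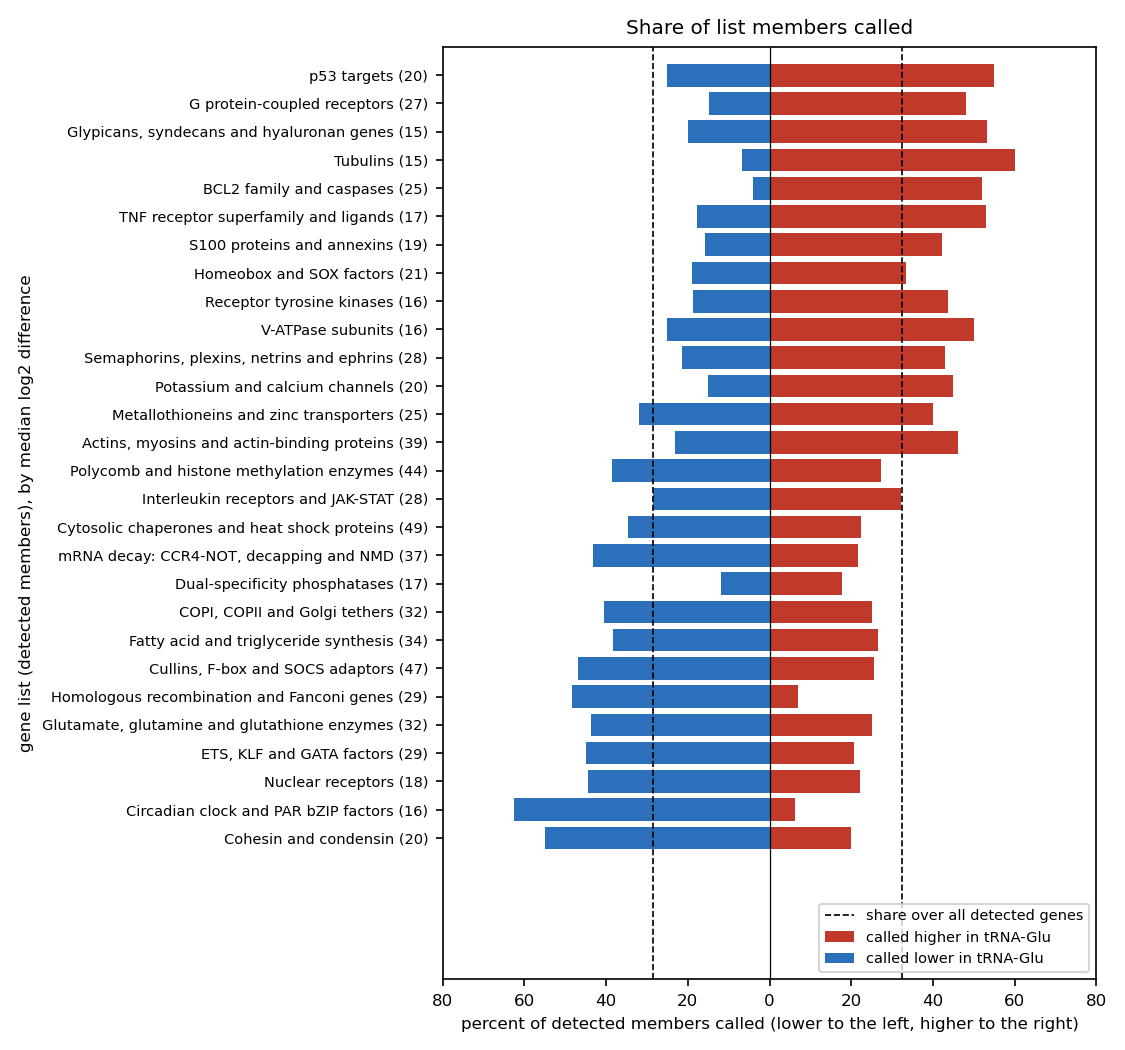
Percent of detected members called higher (right) or lower (left) in tRNA-Glu cells for 28 gene lists of at least 15 detected members, those with the 14 highest and 14 lowest medians, with dashed lines at the shares over all detected genes (32.4% and 28.6%). BCL2-family genes, tubulins and the listed G protein-coupled receptors reach past the line on the right, and cohesin, clock and homologous recombination genes reach past it on the left.

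Of 20 detected cohesin and condensin genes, 11 fell and 4 rose (median -0.32). WAPL, which releases cohesin from chromatin, had 7.58 and 7.54 in tRNA-Glu cells against 9.08 and 9.32 in control cells (3.11-fold lower, adjusted p = 1.86e-05). SMC3, a core subunit of the cohesin ring, was 2.37-fold lower and STAG2 2.09-fold lower. NCAPG, a condensin I subunit, went the other way, with 11.14 and 11.20 in tRNA-Glu cells against 10.03 and 10.12 in control cells (2.14-fold higher).

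Homologous recombination and Fanconi genes fell in 14 of 29 detected cases and rose in 2 (median -0.15). NBN, of the complex that senses double-strand breaks, had 9.18 and 8.89 in tRNA-Glu cells against 10.04 and 10.03 in control cells (2.00-fold lower). FANCL, a ubiquitin ligase, was 2.08-fold lower, RMI1, a partner of the BLM helicase, 1.70-fold and ATM, the break-response kinase, 1.59-fold. Excision and mismatch repair genes gave 11 rises and 14 falls among 36, with a median of 0.03. Histone methylation and Polycomb genes gave 12 rises and 17 falls among 44, with KMT2C and PCGF6 2.43-fold and 2.42-fold lower and SUV39H1, a histone H3 lysine 9 methyltransferase, 1.82-fold higher.

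Among transcription factors, circadian clock genes had the highest share of falls among the 59 lists. Of 16 detected members 10 fell and 1 rose (median -0.31). Between the over-expression lines, 5 members were higher and 4 lower in tRNA-Glu than in tRNA-Arg cells, where 44% of all genes were called. BHLHE41, for instance, was 0.40 log2 units higher in tRNA-Glu than in tRNA-Arg cells. BHLHE41, a repressor of clock output, had 6.05 and 5.98 in tRNA-Glu cells against 7.24 and 7.30 in control cells (2.40-fold lower), NR1D2, the nuclear receptor REV-ERB beta, was 2.27-fold lower and PER2 1.70-fold lower. The rise was CSNK1D, a kinase that phosphorylates PER proteins (1.94-fold higher). Nuclear receptors fell in 8 of 18 cases and rose in 4 (median -0.25), with NR2C2 2.81-fold lower and NR1H3, the sterol receptor LXR alpha, 1.48-fold higher. The other probe of NR2C2 ran the opposite way, and its averaged probes gave a log2 difference of -0.36 against -1.49. ETS, KLF and GATA factors fell in 13 of 29 cases and rose in 6 (median -0.17), led by GABPA and including SP3 (2.15-fold lower) and KLF12 (2.05-fold lower).

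Factors of mRNA decay fell in 16 of 37 cases and rose in 8 (median -0.10). CNOT7, a deadenylase of the CCR4-NOT complex, had 8.56 and 8.35 in tRNA-Glu cells against 9.44 and 9.50 in control cells (2.03-fold lower), PAN3, of another deadenylase, was 1.91-fold lower, and EDC4, of the decapping complex, was 1.58-fold higher. The other probe of CNOT7 ran the opposite way, and its averaged probes gave a log2 difference of -0.40 against -1.02. In the microRNA pathway DICER1, which cuts precursor hairpins, had 7.44 and 7.70 in tRNA-Glu cells against 9.11 and 9.24 in control cells (3.05-fold lower), whereas AGO2, which carries the mature microRNA, was 1.80-fold higher and DGCR8 1.52-fold higher. Cullins, F-box and SOCS adaptors of ubiquitin ligases fell in 22 of 47 cases and rose in 12 (median -0.14), with KLHL5, SOCS4 and FBXO3 2.92-fold, 2.72-fold and 2.38-fold lower and SOCS1 2.17-fold higher. Probes of SOCS4 opposed each other, and averaged they gave a log2 difference of -0.45 against -1.45 with the brightest.

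In the secretory pathway, COPI, COPII and Golgi tether genes fell in 13 of 32 cases and rose in 8, with TMED7, a cargo receptor, at 9.17 and 9.13 in tRNA-Glu cells against 10.56 and 10.65 in control cells (2.74-fold lower) and SEC23A, of the COPII coat, 1.93-fold lower. RAB27A, of secretory granules and exosomes, was 3.12-fold lower among Rab proteins, which as a list gave 10 rises and 14 falls of 38. With its probes averaged, RAB27A had a log2 difference of -0.90 against -1.64. V-ATPase subunits gave 8 rises and 4 falls of 16, with ATP6V0B 2.14-fold higher and ATP6AP2, the prorenin receptor, 1.73-fold lower.

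Enzymes of glutamate, glutamine and glutathione metabolism gave 8 rises and 14 falls among 32 detected members (median -0.16). ASNS and PSAT1 of the falls above belong to this list. MGST2 and GSTK1, transferases of glutathione, were 2.12-fold and 1.88-fold higher. In the wider metabolism, DCK, which phosphorylates deoxycytidine, had 8.26 and 8.31 in tRNA-Glu cells against 10.12 and 10.01 in control cells (3.44-fold lower), and HPRT1, of purine salvage, was 1.89-fold lower. PCK2, the mitochondrial form of phosphoenolpyruvate carboxykinase, was 2.95-fold lower and PC, pyruvate carboxylase, 2.30-fold higher. AGPAT5, an acyltransferase of phospholipid synthesis, was 3.0-fold lower, ABCC3, a drug and bile salt exporter, 2.69-fold lower, ST6GAL1, a sialyltransferase, 2.99-fold lower and HMOX1, haem oxygenase, 2.31-fold higher.

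Nucleoporins and karyopherins gave 15 rises and 16 falls among 51 detected members with a median of -0.00, ribosome biogenesis factors 19 and 18 among 56, and enzymes of the TCA cycle 11 and 11 among 34. Dual-specificity phosphatases gave 3 rises and 2 falls among 17. Among nuclear transport genes, NUP160 was 2.27-fold lower and the importin IPO13 2.13-fold higher. Of the 10 genes with the brightest probes, among them EEF1A1, RPL41, TMSB4X, LAIR1, ORC6 and F2R, none was called. Quantile normalization gives every array the same values at the top of the scale, so these genes had little room to differ. Their lack of calls therefore does not show unchanged levels, and saturation of the probes was not tested.

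Calls were not spread evenly over gene size. Genes were split into quintiles by genomic span, the distance between a gene's ends in the RefSeq gene table, a split chosen after values were seen. In the quintile of shortest span (up to 8.64 kb) 41.1% were higher and 17.4% lower, with a median log2 difference of 0.17. In the next quintiles the medians were 0.12, 0.04 and -0.08, and in the quintile of longest span (from 86.5 kb) 24.4% were higher and 37.7% lower, with a median of -0.10. The median span was 21.0 kb for genes called higher and 42.5 kb for genes called lower, and 18.0 kb and 48.0 kb for those at least 2-fold higher and lower.

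Between arrays of a group the medians stayed near 0. Across the quintiles, tRNA-Glu replicate 1 minus replicate 2 had medians between -0.01 and 0.01, and control replicate 1 minus replicate 2 likewise. Against the tRNA-Arg arrays the medians of tRNA-Glu cells ran as 0.16, 0.14, 0.06, -0.03 and -0.07 from the shortest to the longest quintile. The shortest quintile had a median above 0 and the longest a median below 0 at low, middle and high expression level, at 0.16, 0.22 and 0.15 for the shortest and -0.03, -0.15 and -0.13 for the longest.

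Chromosomes differed too. Of 722 detected genes on chromosome 19, 50.6% were higher and 11.1% lower (median 0.27), and on chromosome 22 it was 43.4% and 16.1% of 242. On chromosome 13, 14.1% of 184 genes were higher and 47.8% lower (median -0.26), and on chromosome 10 it was 19.9% and 44.3% of 427. Against the tRNA-Arg arrays the medians of tRNA-Glu cells were 0.26 on chromosome 19 and 0.21 on chromosome 22. They were -0.18 on chromosome 13 and -0.01 on chromosome 10. Chromosome 19 is rich in short genes, with a median span of 15497 bases here, against 50181 bases on chromosome 13. Within each quintile of span the median of chromosome 19 was above 0, between 0.12 and 0.35, and that of chromosome 13 below 0, between -0.37 and -0.14, where the other chromosomes had 0.16 in the shortest and -0.09 in the longest quintile.

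**Figure D4:**
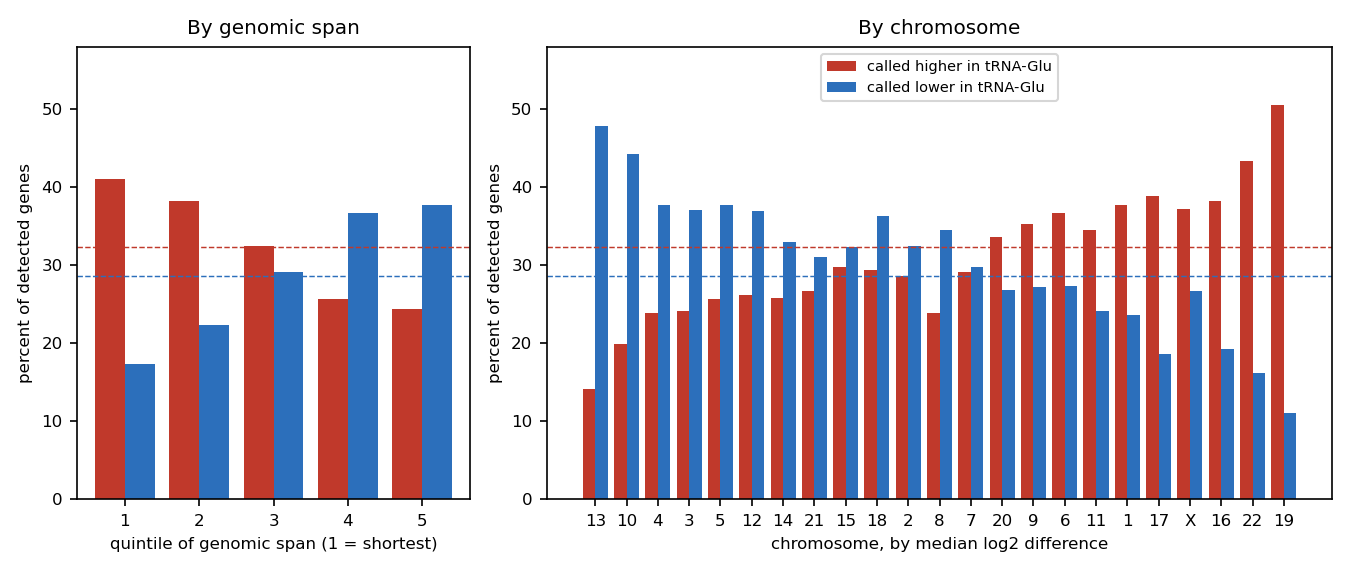
Percent of detected genes called higher (red) or lower (blue) in tRNA-Glu cells, by quintile of genomic span (left) and by chromosome ordered by median log2 difference (right), with dashed lines at the shares over all genes. The share of higher genes declines from 41.1% in the shortest to 24.4% in the longest quintile, and chromosomes 13 and 19 hold the ends of the chromosome order.

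Runs of neighbouring genes made the local pattern visible. Among 10299 windows of 15 neighbouring detected genes the median window lay at 0.04, and the central 90% between -0.39 and 0.41. On chromosome 1 the 15 genes between GPN2 and XKR8 had a median of 0.90, with 12 higher and 1 lower, and those between NOC2L and ATAD3A had 14 higher and none lower. On chromosome 17 the genes between GALK1 and SPHK1 had a median of 0.80, with 12 higher and none lower. On chromosome 12 the genes between BCAT1 and CCDC91 had a median of -0.78, with 14 lower and none higher. A further low run lay between NHLRC3 and AKAP11 on chromosome 13 (median -0.67, 10 lower, none higher). NHLRC3 itself has opposing probes and was not called with them averaged. These windows were picked as the most extreme of many.

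Small nucleolar RNAs guide the chemical modification of ribosomal and spliceosomal RNA, and most are cut from introns of host genes. The array detected 94 of them, of which 36 were lower (38.3%) and 21 higher (22.3%) in tRNA-Glu cells. The genes named here were chosen after their values were seen. SNORD76 lies in the span of GAS5 and had 5.37 and 5.38 in tRNA-Glu cells against 7.17 and 7.27 in control cells. SNORD80, of the same host, was lower by 0.83 log2 units. Of 6 detected members in the span of TAF1D, 5 fell and none rose, with a median of -0.92, and TAF1D itself fell by 0.62. Of 4 in the span of SNHG1, 3 fell, SNORD30 by 1.20 and SNORD31 by 1.18, while SNHG1 itself was not called (0.12).

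Among 73 small nucleolar RNAs with a detected spanning gene, 11 were lower together with it, 1 was higher together with it, 4 were higher where the spanning gene was lower, and for 57 at least 1 of the pair was not called. SNORA23 rose by 0.40 while its host IPO7 fell by 1.33 log2 units. Of the 5 detected that lie in no other gene's span, 4 rose and none fell. These include SNORD3A, SNORD3C and SNORD3D, copies of the U3 RNA of early ribosome assembly, with differences of 0.90, 0.78 and 0.68. Probes of such copies may read each other's transcripts, so the copies may not be separate measurements. SNORD3D was no longer called without either tRNA-Glu array or without control replicate 2, and SNORA23 without tRNA-Glu replicate 2 or control replicate 2. SNORD3A had 7.14 and 6.94 in tRNA-Glu cells against 6.41 and 5.87 in control cells, and its control arrays differed more from each other than the tRNA-Glu arrays did. Spans were matched without regard to strand, and a probe inside an intron may also read unspliced host RNA, which was not tested.

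**Figure D5:**
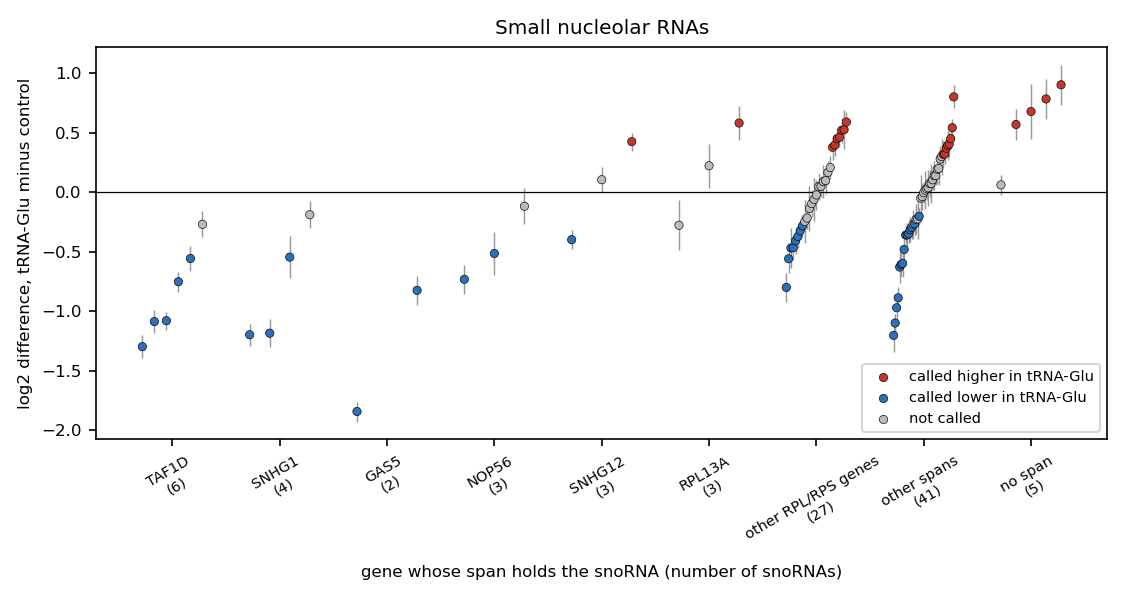
Log2 difference (tRNA-Glu minus control) of each detected small nucleolar RNA with its standard error, grouped by the gene whose span holds it, coloured by call. Members within TAF1D, SNHG1 and GAS5 lie below 0, 5 of 6, 3 of 4 and 2 of 2 of them called lower. The 5 outside any span lie above 0, and 4 of them are called higher.

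Among 146 detected long noncoding RNAs, 33.6% were higher and 15.1% lower. SNHG9, a short host transcript, had 9.09 and 9.15 in tRNA-Glu cells against 7.40 and 7.33 in control cells (3.37-fold higher, adjusted p = 8.58e-06). CYTOR was 2.68-fold higher (log2 difference 1.42, or 0.83 with its probes averaged), DANCR 1.52-fold and HCP5, of the HLA region, 1.57-fold. Of 11 detected genes of the snRNA class, 4 rose and none fell. SNAR-A1, a small noncoding RNA of a multicopy family, had 7.96 and 7.90 in tRNA-Glu cells against 5.89 and 5.85 in control cells (4.18-fold higher). RN7SK, which holds the elongation factor P-TEFb inactive, and RNU6ATAC and RNU6-1 of the spliceosome were the others. RNU6-1, a U6 RNA copy, had 9.27 and 9.43 in tRNA-Glu cells against 8.89 and 8.41 in control cells.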

How the data were processed

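Total RNA of MDA-MB-231 cells was labelled and hybridised to 6 Illumina BeadChip arrays, 2 per group, per the labels. The deposited intensity values are non-normalized bead signals with a detection p-value per probe, per the file headers. A second deposited intensity table was processed by the authors, with lumi named in the submitters' processing notes, and the authors deposited log fold changes (headed logFC and treated as log2, though neither base nor sign is stated). From the non-normalized values, normexp correction with an offset of 16, quantile normalization and log2 transformation (neqc) were computed with limma 3.58.1 in R 4.3.3. Each gene was read from its brightest probe, kept if 2 or more of the 4 arrays detected it (detection p below 0.01), and 1 fit held all 3 groups. A probe was not above background in a group where neither array had a detection p below 0.05. The number of arrays limits the precision. Named genes were the 15 largest rises and falls, genes past a 4-fold bound, the 10 brightest, up to 4 of smallest p per list, the study's EXOSC2 and GRIPAP1, and markers; other names were chosen after their values were seen. Genes and lists were chosen with earlier results of these data known. The fit was tested on simulated data. Alternatives covered scaling, background, filter, probe rule, arrays in the fit, replicate block and each array left out.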

Additional observations from a re-analysis of the deposited data

How the results depend on the processing

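Median scaling called 3866 genes, 2191 higher and 1675 lower, and 1327 between tRNA-Glu and tRNA-Arg cells; the cause was not tested. Leaving out 1 array of the comparison at a time gave 5284 to 5636 calls, 2776 to 3015 higher and 2508 to 2621 lower, and between the over-expression lines 2806 (without tRNA-Glu replicate 2) to 4628, with fewer samples in each fit. Under the other alternatives the counts stayed within 1.5 times, and with the replicate block, 6374 genes were called, 3402 higher and 2972 lower, and 4498 between the over-expression lines. Same-numbered arrays did not deviate together (correlations of -0.03 for tRNA-Glu and control, -0.05 for tRNA-Glu and tRNA-Arg and 0.02 for tRNA-Arg and control), so the numbers were not taken to pair arrays. Of 167 named genes, 158 kept their call and direction under every alternative that gave a value. Calls of EPCAM, TFF3, EXOSC2, GRIPAP1, SNORA23, SNORD3D, ROBO4 and NHLRC3 were lost under at least 1, and RPL41 was called only where probes of a gene were averaged. Fold changes moved by over 1.5 times for 23 named genes without background correction, 18 with an offset of 50, 18 with the authors' processed values and 10 with probes averaged. Of 59 list medians, 39 kept their sign under every alternative and 20 did not. The medians by span and chromosome under the same alternatives were added after the data were seen, and their values are not given here. A slide block was not run, since no slide is named in the files used, and the share of glutamate codons was not analysed here. Probes near background limit what can be said of dim genes.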
